A study of Mus musculus with 28 samples.

Results

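B cell development in the bone marrow was followed through 9 genes, chosen by name out of the 25251 genes measured: Cd79a, Cd79b, Vpreb1, Igll1, Pax5, Ebf1, Rag1, Rag2 and Il7r. RNA sequencing was done on bone marrow mononuclear cells (MNCs) and on 2 populations sorted from bone lining cells, endothelial cells (ECs, gated as CD45-Ter119-CD31+) and mesenchymal stromal cells (MSCs, gated as CD45-Ter119-CD31-CD166-Sca1+), with 200 cells per MNC library and 100 cells per EC or MSC library. The mice were 8 to 10 wk old and of the C57 BL6 strain, and were either Flt3+/+ (labelled WT) or Flt3ITD/ITD (labelled ITD), the latter carrying an internal tandem duplication of the Flt3 receptor gene on both alleles in every cell. There were 4 mice per genotype for MNCs and 5 per genotype for ECs and MSCs, which gave 28 libraries. The question was whether B cell development genes differed between genotypes in MNCs, and what the same genes showed in ECs and MSCs, neither of which is a blood cell.

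B cells arise in the bone marrow from lymphoid progenitors. Signals through the IL-7 receptor and the transcription factor Ebf1 start the B cell program, Pax5 fixes it, and the recombinase made of Rag1 and Rag2 cuts the immunoglobulin genes so that they can be rearranged. At the pre-B stage, the heavy chain pairs with a surrogate light chain made of Vpreb1 (or its near copy Vpreb2) and Igll1, and the complex signals through Cd79a and Cd79b, which later form the signaling part of the mature B cell receptor. The surrogate light chain and the recombinase therefore mark B cell precursors, whereas Cd79a and Cd79b are shared by precursors and mature B cells. Ebf1 is also known to be expressed by mesenchymal stromal cells of the bone marrow.

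In the mouse genome (GRCm38.p6), Cd79a lies at chr7:24897497-24901858 and Cd79b at chr11:106311341-106314562. Vpreb1 (chr16:16868401-16869255) and Igll1 (chr16:16860671-16863985) are neighbors 4415 bases apart, and Rag1 (chr2:101638252-101649532) and Rag2 (chr2:101624712-101632528) are neighbors 5723 bases apart. Pax5 lies at chr4:44524748-44710694, Ebf1 at chr11:44618100-45008096 and Il7r at chr15:9506159-9529941. Windows of 250 bases upstream of the start were read from RefSeq for 8 of the 9 genes, with 9 windows because Ebf1 has 2 starts. Those of Cd79a, Vpreb1 and Igll1 are shown because the products of these genes come together in the pre-B cell receptor and all are known targets of Ebf1. Capitals mark matches on either strand to an EBF1 motif (CCCNNGGG), an E box (CAGNTG) or an Ikaros motif (TGGGAA), which did not overlap one another in these windows.
Cd79a, chr7:24897247-24897496, plus strand: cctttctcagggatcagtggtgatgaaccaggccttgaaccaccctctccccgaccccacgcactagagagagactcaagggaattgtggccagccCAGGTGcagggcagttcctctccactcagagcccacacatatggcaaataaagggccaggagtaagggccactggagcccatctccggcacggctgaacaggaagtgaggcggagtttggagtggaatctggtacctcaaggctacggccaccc
Vpreb1, chr16:16869256-16869505, minus strand: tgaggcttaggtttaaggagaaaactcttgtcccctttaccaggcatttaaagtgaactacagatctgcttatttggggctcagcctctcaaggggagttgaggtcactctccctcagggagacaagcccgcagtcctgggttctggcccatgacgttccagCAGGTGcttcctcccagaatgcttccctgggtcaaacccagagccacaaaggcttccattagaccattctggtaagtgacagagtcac
Igll1, chr16:16863986-16864235, minus strand: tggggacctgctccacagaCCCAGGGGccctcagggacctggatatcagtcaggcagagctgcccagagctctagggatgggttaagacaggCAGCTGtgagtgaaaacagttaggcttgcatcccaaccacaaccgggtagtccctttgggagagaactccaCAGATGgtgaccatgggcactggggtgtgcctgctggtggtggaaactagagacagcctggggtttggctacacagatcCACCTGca

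An E box stood in 5 of the 9 windows of these genes and in 44.8% of all 32851 promoter windows of the same length. The window of Igll1 held 3 E boxes, which began 158, 87 and 8 bases before the start, and those of Cd79a and Vpreb1 held 1 each, 154 and 88 bases before it. The window of Rag1 also held 3 E boxes and that of Il7r held 1. The EBF1 motif was found in 1 of the 9 windows, that of Igll1, 231 bases before the start, and in 11.8% of all windows. Ikaros motifs were found in 2 of the 9, those of Rag1 and of the downstream start of Ebf1, and in 21.6% of all windows. Only exact matches to the fixed letters of each motif were counted. A window without a match, such as that of Cd79a for the EBF1 motif, can still hold a site that departs from those letters. These matches describe the letters of the windows and are not binding data.

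Total counts were 14260910 to 22149240 per MNC library, 6377013 to 33880743 per EC library and 10674182 to 33714502 per MSC library. The labelled populations were checked by their defining markers. Ptprc (CD45) was at 125 to 161 RPKM (reads scaled to transcript length and library total) in MNCs. It was at 0 to 3 counts in 9 of the 10 EC libraries and at 778 in the other, Flt3ITD/ITD replicate 2. In MSCs it was at 0 to 32 counts. The summed RPKM of 11 neutrophil lineage markers was 29500 in Flt3ITD/ITD EC replicate 2 and at most 1300 in the other EC libraries. That sum was 6070 in Flt3ITD/ITD MSC replicate 5 and at most 482 in the other MSC libraries. Mpo, 1 of these markers, was at 1884 counts in Flt3+/+ MSC replicate 5. Cdh5, an endothelial cadherin, was at 165 to 252 RPKM in ECs and at most 1.43 RPKM elsewhere, and Pdgfrb, a stromal marker, was at 11.4 to 25 RPKM in MSCs and at most 3.85 RPKM elsewhere. Transcripts of Flt3 itself were at 2.53 to 6.96 RPKM in Flt3+/+ MNCs and 6.91 to 14.8 RPKM in Flt3ITD/ITD MNCs, and since the duplicated allele is transcribed, its level does not check the genotype labels.

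In MNCs, all 9 genes passed the filter on low counts and all 9 had a log2 fold change below 0 in Flt3ITD/ITD mice, against 50.5% of the 13926 genes tested. The genes were chosen with earlier results of these data known, and they tended to vary together across these libraries. Their shared direction is therefore not 9 separate results. None of the 9 passed the call rule, which asks for an adjusted p-value below 0.1 in edgeR's quasi-likelihood test with Benjamini-Hochberg adjustment and for mean RPKM that differ by 1 or more on the log2 scale. That rule called 2 genes of all those tested, 0.0144%. At an unadjusted p-value below 0.05, 5 of the 9 were lower in Flt3ITD/ITD MNCs (Vpreb1, Ebf1, Il7r, Igll1 and Rag2) and none was higher, where 10.4% of all genes passed, 5% in the lower and 5.39% in the higher direction. Without 1 library at a time, that count ranged from 2 to 7 and all 9 stayed below 0. It was 2 without Flt3+/+ replicate 2 or 4 or Flt3ITD/ITD replicate 3, and 3 without Flt3ITD/ITD replicate 1 or 2. The median log2 fold change of the 9 genes was -1.11, against -0.01 for all genes, and 7 of the 9 were at -1 or lower, as were 6% of all genes. In a pool of 200 MNCs, fewer B lineage cells and less RNA per B lineage cell cannot be told apart.

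DESeq2 called 1 of the 9 genes, Vpreb1, where it called 0.82% of all genes as lower and 2.23% in either direction. The exact test of edgeR also called Vpreb1 alone among the 9, where it called 1.06% of all genes. In RPKM, 0 of the 9 genes had Flt3ITD/ITD libraries that all lay below all Flt3+/+ libraries, and 0.984% of all genes had. RPKM is divided by the library total, and the median log2 ratio of mean RPKM over all tested genes was 0.19, so that RPKM ratios sit above the fitted fold changes. On counts scaled by the TMM method (TMM-normalized CPM), a scale chosen after the data had been seen, that median was -0.01, and 1 of the 9 genes, Ebf1, had libraries that did not overlap, as had 2.51% of all genes in that direction.

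**Figure D1:**
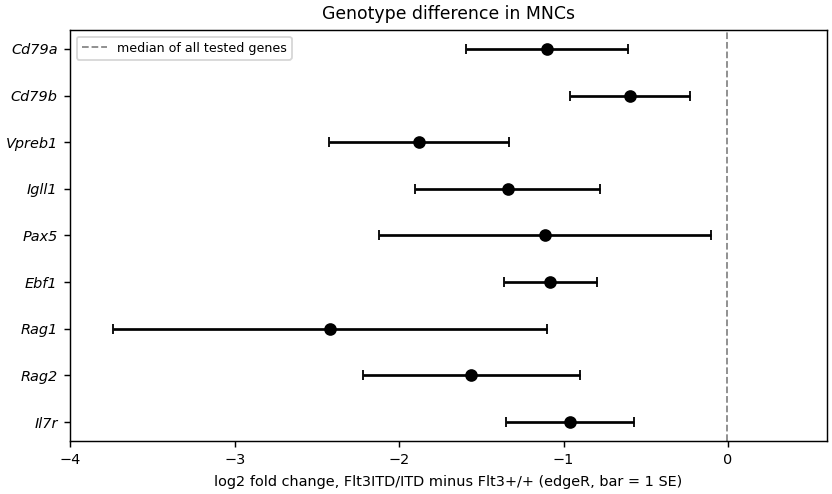
The plot gives the log2 fold change of each of the 9 genes between Flt3ITD/ITD and Flt3+/+ MNCs (x axis, edgeR) with bars of 1 SE, and a dashed line at the median of all tested genes. All 9 points lie to the left of the line, from -0.60 for Cd79b to -2.42 for Rag1, whose bar is the longest.

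Cd79a and Cd79b, the signaling pair of the B cell receptor, were among the most abundant of the 9 transcripts in MNCs. Cd79a was at 90.6, 237, 102 and 169 RPKM in Flt3+/+ replicates 1 to 4 and at 61.4, 57.5, 30.6 and 176 RPKM in Flt3ITD/ITD replicates 1 to 4. Replicates 1 to 3 of the Flt3ITD/ITD mice were below every Flt3+/+ library, and replicate 4 was above 3 of the 4. The means were 150 ± 68 and 81.4 ± 64.7 RPKM (SD, n = 4 each), with an exact two-sided permutation p of 0.2, where the smallest p that 4 mice against 4 allow is 0.0286. The fitted log2 fold change of Cd79a was -1.10 ± 0.49 (SE; edgeR's quasi-likelihood test, adjusted p = 0.478). Without 1 library at a time, it ranged from -1.74 to -0.84. Of the 51-base windows of Cd79a transcripts, 8.1% are shared with the predicted gene Gm32220.

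Cd79b was at 92.3, 213, 113 and 187 RPKM in Flt3+/+ MNCs and at 72.9, 85.5, 101 and 209 RPKM in Flt3ITD/ITD MNCs. The groups overlapped, with the highest Flt3ITD/ITD library close to the highest Flt3+/+ library. Its log2 fold change was the smallest of the 9 in size, -0.60 ± 0.36 (SE; edgeR's quasi-likelihood test, adjusted p = 0.59). The pair was near parity in Flt3+/+ libraries, where the ratio of Cd79a to Cd79b RPKM was 0.903 to 1.12. The ratio was 0.843, 0.672, 0.302 and 0.841 in Flt3ITD/ITD replicates 1 to 4, so that all 4 were below all 4 Flt3+/+ ratios. This ratio was looked at after the values of both genes were known and is given without a test. Of 7 ratios between members that were computed, the genotypes overlapped in the other 6.

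**Figure D2:**
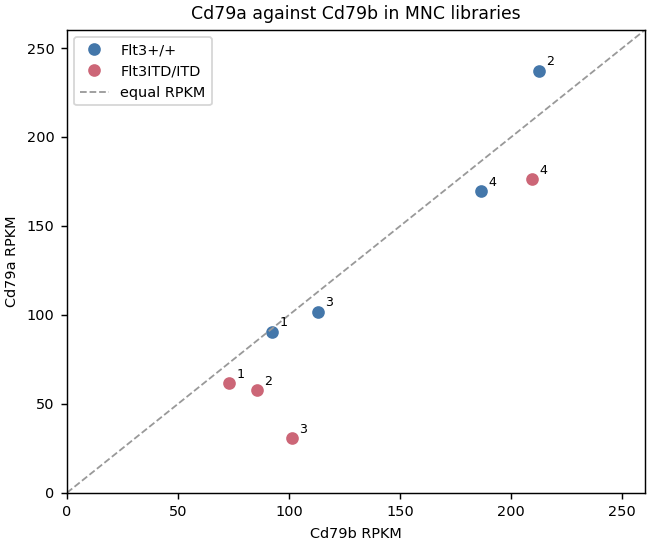
Each point is 1 MNC library, numbered by replicate, with its Cd79b level on the x axis and its Cd79a level on the y axis (both in RPKM), and the dashed line marks equal values. The 4 Flt3ITD/ITD points lie below the line, the farthest being replicate 3 at 101 and 30.6 RPKM, and the 4 Flt3+/+ points lie close to it.

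The surrogate light chain gene Vpreb1 was at 62.6, 85.2, 10.4 and 47.2 RPKM in Flt3+/+ MNCs and at 21.5, 6.21, 14.3 and 19 RPKM in Flt3ITD/ITD MNCs. Flt3+/+ replicate 3 was low and lay within the Flt3ITD/ITD range, and the other 3 Flt3+/+ libraries were above every Flt3ITD/ITD library. The mean was 3.36-fold higher in Flt3+/+ mice, at 51.3 ± 31.4 against 15.3 ± 6.74 RPKM (SD, n = 4 each; exact permutation p = 0.114). The log2 fold change was -1.88 ± 0.55 (SE), with an adjusted p of 0.415 in edgeR's quasi-likelihood test, 0.0881 in its exact test and 0.0362 in DESeq2. Over all other settings its adjusted p ranged from 0.0362 to 1, and without 1 library at a time the log2 fold change stayed between -2.21 and -1.60. Of the 51-base windows of Vpreb1 transcripts, 23.1% also occur in transcripts of Vpreb2 or Top3b. Reads mapping to more than 1 place had been discarded, and the loss of reads from these windows was not tested.

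Igll1, the partner of Vpreb1 in the surrogate light chain, was at 136, 274, 38.5 and 163 RPKM in Flt3+/+ MNCs and at 116, 42.1, 26.2 and 81 RPKM in Flt3ITD/ITD MNCs. Flt3+/+ replicate 3 was again the lowest of its group, and it was the library that made the groups overlap. Means were 153 ± 96.7 and 66.3 ± 40.3 RPKM (SD, n = 4 each; exact permutation p = 0.143), and the log2 fold change was -1.34 ± 0.56 (SE; edgeR's quasi-likelihood test, adjusted p = 0.461). Across the 8 MNC libraries, which differ in genotype and share their depth scaling, Vpreb1 and Igll1 varied together with a Pearson r of 0.884 and a Spearman rho of 0.881 on log2(RPKM + 1). The ratio of Vpreb1 to Igll1 overlapped between genotypes, at 0.269 to 0.46 in Flt3+/+ and 0.147 to 0.545 in Flt3ITD/ITD libraries.

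**Figure D3:**
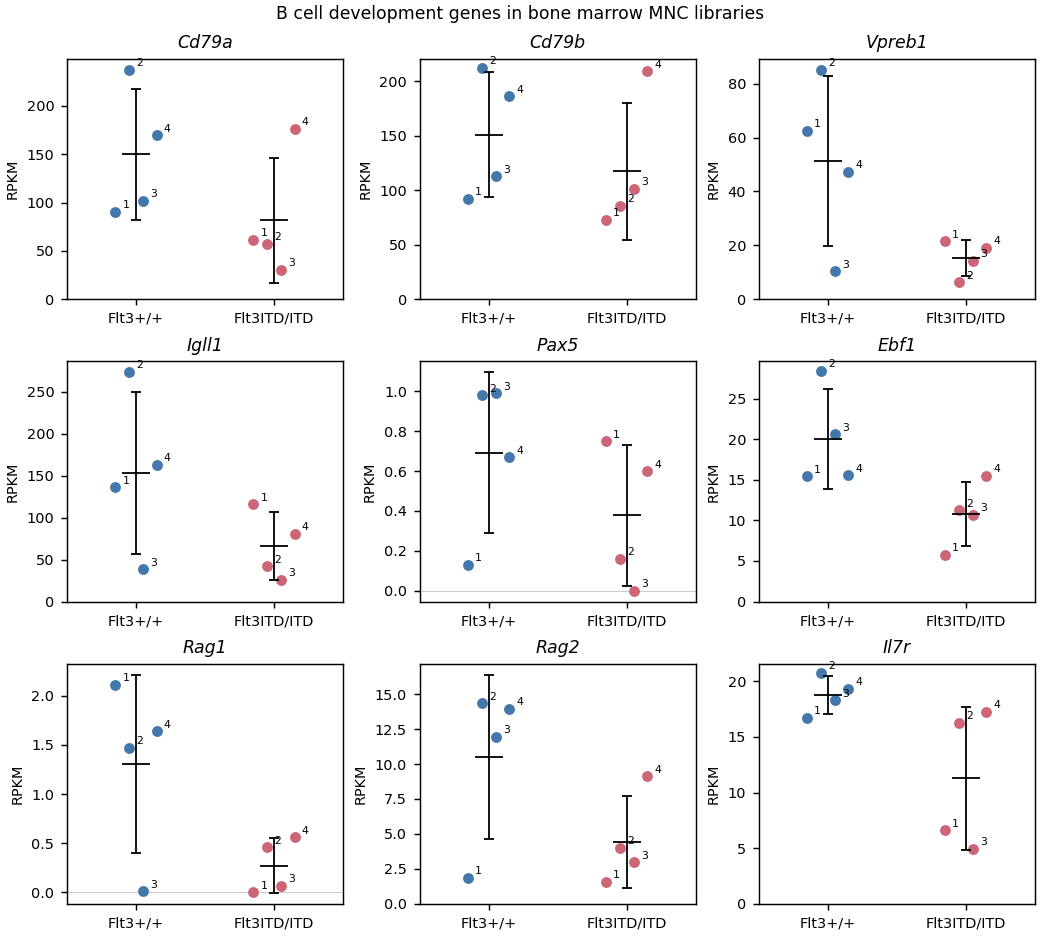
Each panel shows 1 gene, with RPKM on the y axis, 1 point per MNC library numbered by replicate, and bars for the mean ± SD of 4 mice. Flt3ITD/ITD means are below Flt3+/+ means in all 9 panels and the points of both genotypes overlap in each, as for Cd79a, where Flt3ITD/ITD replicate 4 is at 176 RPKM.

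Among the transcription factors, Ebf1 had the smallest error. It was at 15.4, 28.4, 20.6 and 15.6 RPKM in Flt3+/+ MNCs and at 5.73, 11.2, 10.7 and 15.5 RPKM in Flt3ITD/ITD MNCs. In RPKM, Flt3ITD/ITD replicate 4 was just above Flt3+/+ replicate 1, and the other 3 Flt3ITD/ITD libraries were below all of the Flt3+/+ libraries. The means were 20 ± 6.12 and 10.8 ± 4 RPKM (SD, n = 4 each; exact permutation p = 0.0571). On TMM-normalized CPM the ranges were 34.4 to 64.4 and 15.4 to 32.3 and did not overlap (exact permutation p = 0.0286, the smallest possible). The log2 fold change was -1.08 ± 0.28 (SE), with an adjusted p of 0.397 in edgeR's quasi-likelihood test, 0.0759 in its exact test and 0.0358 in DESeq2. Over all other settings the adjusted p of Ebf1 ranged from 0.0358 to 0.974. Its log2 ratio of mean RPKM, -0.89, missed the fold rule, so that neither of those tests called it.

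Pax5, the factor that commits cells to the B lineage, was close to the detection limit, with 0 to 21 counts per MNC library. It was at 0.13, 0.98, 0.99 and 0.67 RPKM in Flt3+/+ MNCs and at 0.75, 0.16, 0 and 0.6 RPKM in Flt3ITD/ITD MNCs. The groups overlapped widely, and the log2 fold change of -1.11 had an SE of 1.01 (edgeR's quasi-likelihood test, adjusted p = 0.729). No difference in Pax5 was detectable at this depth.

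The recombinase genes differed in level and in which libraries carried them. Rag1 was at 2.11, 1.47, 0.01 and 1.64 RPKM in Flt3+/+ MNCs and at 0, 0.46, 0.07 and 0.56 RPKM in Flt3ITD/ITD MNCs, and Flt3+/+ replicate 3 was the library that made the groups overlap. Its log2 fold change of -2.42 ± 1.32 (SE) was the largest of the 9 in size and had the largest error (edgeR's quasi-likelihood test, adjusted p = 0.534). Rag2 was at 1.85, 14.4, 11.9 and 13.9 RPKM in Flt3+/+ MNCs and at 1.58, 4.03, 2.98 and 9.12 RPKM in Flt3ITD/ITD MNCs. Here Flt3+/+ replicate 1 was the low library, and the other 3 were above every Flt3ITD/ITD library. The mean of Rag2 was 2.38-fold higher in Flt3+/+ mice (exact permutation p = 0.114), with a log2 fold change of -1.56 ± 0.66 (SE; edgeR's quasi-likelihood test, adjusted p = 0.461). Although the recombinase needs both proteins, Rag1 and Rag2 correlated weakly over the 8 MNC libraries, with a Pearson r of 0.233 on log2(RPKM + 1). Rag1 had 1 count in Flt3+/+ replicate 3, 0 in Flt3ITD/ITD replicate 1, 9 in Flt3ITD/ITD replicate 3 and 60 to 259 in the others. With counts this low in some libraries, the correlation cannot show whether the 2 genes vary apart.

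Il7r, which encodes the chain of the IL-7 receptor shared with the receptor for TSLP, was the steadiest of the 9 in Flt3+/+ MNCs, at 16.7, 20.8, 18.3 and 19.4 RPKM. The Flt3ITD/ITD libraries split into a low and a high pair, with 6.61 RPKM in replicate 1 and 4.93 in replicate 3, against 16.3 in replicate 2 and 17.3 in replicate 4. Of the 4, 3 were below every Flt3+/+ library. Means were 18.8 ± 1.72 and 11.3 ± 6.41 RPKM (SD, n = 4 each; exact permutation p = 0.0571), and the log2 fold change was -0.96 ± 0.39 (SE; edgeR's quasi-likelihood test, adjusted p = 0.447). Il7r is also made by T and NK lineage cells. The T cell receptor component Cd3e was at 2.13, 8.99, 4.91 and 3.38 RPKM in Flt3+/+ MNCs and at 0.04, 11.3, 0.03 and 16.9 RPKM in Flt3ITD/ITD MNCs. The Flt3ITD/ITD libraries low in Cd3e were thus the same 2 that were low in Il7r, and the part of T cells in the Il7r values was not tested.

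Flt3ITD/ITD replicate 4 was the highest of its group for Cd79a, Cd79b, Ebf1, Rag1, Rag2 and Il7r, and Flt3+/+ replicate 2 was the highest of its group for 7 of the 9 genes, all but Pax5 and Rag1. Over the 8 libraries, the mean log2(RPKM + 1) of the 9 genes was 4.18, 5.08, 3.97 and 4.71 in Flt3+/+ mice and 3.49, 3.49, 3.17 and 4.31 in Flt3ITD/ITD mice. The highest Flt3ITD/ITD library was above 2 of the Flt3+/+ libraries. Of 12029 genes with a mean of at least 1 RPKM in MNCs, the 5 whose pattern was most like that mean were Mthfd1 (Pearson r = 0.937 over 8 libraries), Tcrd (0.931), Cdk5rap2 (0.927), Ell2 (0.913) and Vpreb3 (0.909). These correlations describe libraries that share genotype and scaling. Of the 5, Vpreb3 is a known B cell precursor gene, at 105, 270, 143 and 272 RPKM in Flt3+/+ and 57, 101, 31.1 and 219 RPKM in Flt3ITD/ITD MNCs.

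Other genes of the pathway were counted in lists. Of 20 other early B lineage genes tested in MNCs, 5 were lower at an unadjusted p-value below 0.05 in edgeR's quasi-likelihood test, none was higher, 18 were below 0 and the median log2 fold change was -0.51. The 5 were Dntt, Blnk, Vpreb2, Lef1 and Cd24a, with adjusted p-values of 0.397 to 0.424. Dntt, the enzyme that adds bases to the junctions of rearranging genes, was at 77.8, 57.7, 15.9 and 79.6 RPKM in Flt3+/+ and 13.3, 7.68, 9.98 and 31.7 RPKM in Flt3ITD/ITD MNCs. As with the surrogate light chain and Rag1, Flt3+/+ replicate 3 was the low library of its group. The log2 fold change of Dntt was -2.09 ± 0.54 (SE), with an adjusted p of 0.397 in edgeR's quasi-likelihood test and 0.00877 in DESeq2. Blnk, the adaptor through which the pre-B cell receptor signals, was at 65.4, 92.8, 41.6 and 62.2 RPKM in Flt3+/+ and 37.2, 37.9, 16.6 and 41.9 RPKM in Flt3ITD/ITD MNCs (log2 fold change -1.14 ± 0.29 SE; adjusted p = 0.397 in edgeR and 0.0223 in DESeq2). Vpreb2, the near copy of Vpreb1, had a log2 fold change of -1.61 ± 0.61 (SE).

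The mature B cell list gave no shared direction, with 11 of 22 genes below 0. It holds genes that other cells also make, such as Cd40, so its median does not measure the level of mature B cells. Of 22 genes tested, 3 were lower (Cd37, Cxcr5 and Syk) and 3 higher (Ciita, Cd40 and Tnfrsf13b) at an unadjusted p-value below 0.05, with a median log2 fold change of -0.003. Cd40, a costimulatory receptor of B cells and other antigen-presenting cells, had means of 2.74 ± 1.48 and 10.5 ± 5.49 RPKM (SD, n = 4 each), and Ciita, which drives MHC class II genes, had means of 0.755 ± 0.519 and 4 ± 4.1 RPKM. DESeq2 called 3 genes of this list higher and 1 lower, with adjusted p-values of 0.0187 for Cd40, 0.0608 for Tnfrsf13b, 0.0648 for Ciita and 0.0701 for Cxcr5. Of 7 plasma cell genes tested, Mzb1, a chaperone of immunoglobulin assembly, was lower, at 73.8 to 97.6 against 11.2 to 55.2 RPKM (log2 fold change -1.55 ± 0.43 SE; adjusted p = 0.397 in edgeR's quasi-likelihood test and 0.0274 in DESeq2). The median of that list was 0.08.

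Of 12 genes of the IL-7 receptor pathway tested, 1 was lower and 1 higher at an unadjusted p-value below 0.05, with a median of -0.06. Jak1, the kinase bound to the Il7r chain, had a log2 fold change of -0.42 ± 0.18 (SE). Bcl2, a survival gene downstream of the receptor, was at 2.85 to 4.68 RPKM in Flt3+/+ and 7.35 to 10.4 RPKM in Flt3ITD/ITD MNCs, without overlap, as were 5.72% of all genes in that direction (log2 fold change 1.08 ± 0.20 SE; adjusted p = 0.345 in edgeR's quasi-likelihood test and 0.00036 in DESeq2). Il2rg, the common chain with which Il7r pairs and which was named after its values were seen, had a log2 fold change of 0.01 ± 0.26 (SE). A list of 11 V(D)J recombination genes held the end-joining factors, Dntt, the cutting cofactors Hmgb1 and Hmgb2 and the damage kinase Atm. Of these, 10 were below 0, with a median log2 fold change of -0.35. At an unadjusted p-value below 0.05, 3 were lower (Dntt, Xrcc6 and Hmgb2). Dntt is also in the early B lineage list, so it is counted in both.

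Markers of other cell types were read in the same libraries, as RNA levels and not as shares of cells. Of 8 monocyte and macrophage markers, 5 were higher at an unadjusted p-value below 0.05 and all 8 were above 0, and their summed RPKM was 2110 to 3910 in Flt3+/+ and 3800 to 5460 in Flt3ITD/ITD MNCs. Their defining marker Csf1r was at 19.1 to 42.5 and 49.7 to 73.6 RPKM. All 8 erythroid markers were below 0, with sums of 92.9 to 145000 against 2150 to 22300 RPKM, and all 6 megakaryocyte markers were below 0, with sums of 13 to 34 against 3.8 to 13.3 RPKM. Of 11 neutrophil lineage markers tested, 2 were higher and none lower at an unadjusted p-value below 0.05, and 8 were below 0 (median log2 fold change -0.71). The defining marker Mpo was at 300 to 772 RPKM in Flt3+/+ and 626 to 2188 RPKM in Flt3ITD/ITD MNCs (log2 fold change 1.48; adjusted p = 0.397 in edgeR's quasi-likelihood test and 0.0297 in DESeq2). These markers summed to 166000 to 205000 RPKM in Flt3+/+ MNCs and to 178000, 157000, 43100 and 58300 RPKM in Flt3ITD/ITD replicates 1 to 4. None of the 9 T cell, 6 NK cell or 7 plasmacytoid dendritic cell markers tested passed at an unadjusted p-value below 0.05. The T cell markers summed to 33.8 to 92.4 RPKM in Flt3+/+ MNCs and to 27.7, 72.7, 14.1 and 79 RPKM in Flt3ITD/ITD replicates 1 to 4. Sums of the pan-leukocyte markers overlapped, at 7210 to 9490 and 6320 to 8580 RPKM. The part of these cell types in the values of the 9 genes was not tested. In both genotypes, replicates 1 and 2 carried 294 to 475 RPKM of immediate-early genes in sum and replicates 3 and 4 carried 19.2 to 32.2 RPKM. The log2 ratio of mean RPKM was below 0 for 9 of the 9 genes in replicates 1 and 2 alone (median -1.37) and for 8 of the 9 in replicates 3 and 4 alone (median -0.79), where Cd79b was at 0.05.

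Across populations, 8 of the 9 genes were at or near background in ECs and MSCs, and Ebf1 was not. In the fit over all 28 libraries, 7 of the 9 genes passed the filter on low counts, and 6 were called higher in MNCs than in ECs and the same 6 higher than in MSCs (Cd79a, Cd79b, Vpreb1, Igll1, Rag2 and Il7r), where 20.6% and 20.7% of all genes were. None of these 6 passed the filter in ECs or in MSCs alone, so they entered the joint fit through MNCs, where they are high. The filter thus favoured that direction, nothing is read from the count, and the levels are given as a description. All 8 MNC libraries were above all 10 EC libraries for 5 of the 6, and 5 of the 8 were for Vpreb1. Igll1 was at 26.2 to 274 RPKM in MNCs, at 0 or 1 count in every EC library and at 0 counts in every MSC library. Il7r reached at most 9 counts in ECs and 6 in MSCs. Pax5 and Rag1 failed the filter in that fit and never exceeded 3 counts in an EC or MSC library.

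**Figure D4:**
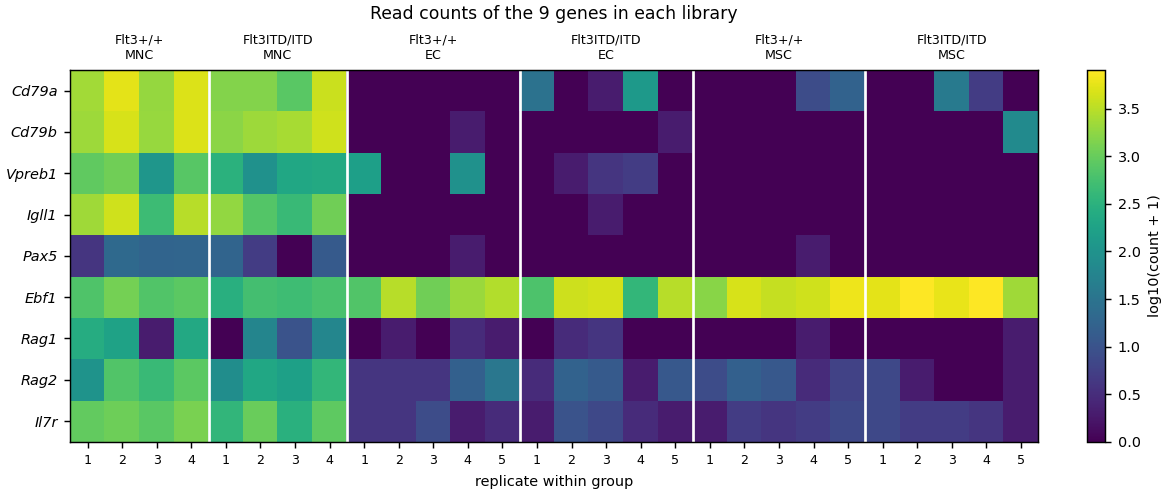
Color gives log10(count + 1) for the 9 genes (rows) in the 28 libraries (columns, by population and genotype). Ebf1 is bright in every column, and the other 8 genes are dark in ECs and MSCs but for single squares such as Vpreb1 in Flt3+/+ EC replicate 1, at 162 counts.

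Higher counts of the other 8 genes in ECs and MSCs came from single libraries. Of their 80 values in ECs, 43 were 0 and 5 reached 20 counts, and of 80 values in MSCs, 54 were 0 and 2 reached 20 counts. Vpreb1 had 162 counts in Flt3+/+ EC replicate 1 and 94 in replicate 4, and its near copy Vpreb2 had 35 and 18 in these 2 libraries and 0 in the other 8 EC libraries. Ptprc was at 0 and 1 counts in the same libraries. Other blood transcripts were present in Flt3+/+ EC replicate 1, where neutrophil markers summed to 1300 RPKM and erythroid markers to 4210 RPKM. In Flt3+/+ EC replicate 4 these sums were 68.1 and 49.9 RPKM. Cd79a had 124 counts in Flt3ITD/ITD EC replicate 4, where Ptprc and Cd79b were both at 0, and 29 in replicate 1. In MSCs, Cd79b had 74 counts in Flt3ITD/ITD replicate 5, which had 32 counts of Ptprc, and Cd79a had 39 in Flt3ITD/ITD replicate 3 with no Ptprc. Flt3ITD/ITD EC replicate 2, the library with 778 counts of Ptprc, had 0 counts of Cd79a and of Cd79b. The source of these counts was not tested.

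Genotypes were compared in ECs and MSCs for Ebf1 alone, the 1 member that passed the filter there. None of the 9 was called in either population, where 0.0081% of 12351 genes were called in ECs and 0.0295% of 13574 in MSCs. The spread between mice was wider there, with a common biological coefficient of variation in edgeR of 0.984 in ECs and 0.871 in MSCs against 0.484 in MNCs, and a missed threshold does not show that values did not differ. In a fit over all 28 libraries at once, which called 1.63% of genes between EC genotypes, Cd79a was called (edgeR's quasi-likelihood test, adjusted p = 0.0922). It was at 0 counts in all 5 Flt3+/+ EC libraries and above 3 counts in 2 of the 5 Flt3ITD/ITD EC libraries, the ones given above, so the call rests on those 2.

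Ebf1 was highest in MSCs, intermediate in ECs and lowest in MNCs, at 81.3 ± 30.5 (SD, n = 10), 40.6 ± 15.6 (n = 10) and 15.4 ± 6.87 RPKM (n = 8). Each step passed the test. The log2 fold change of MNCs was -2.58 ± 0.28 (SE) against MSCs and -1.52 ± 0.26 against ECs, and that of MSCs was 1.05 ± 0.24 against ECs (edgeR's quasi-likelihood test, adjusted p = 2.8e-08, 3.64e-05 and 0.00132). Of all genes, 21.9% and 24.3% were called lower in MNCs than in MSCs and ECs, and 15.5% were called higher in MSCs than in ECs. All 8 MNC libraries were below all 10 MSC libraries, and 3 of the 8 were below all 10 EC libraries.

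In MSCs, Ebf1 was at 53.8, 61.2, 47.9, 60.8 and 78.9 RPKM in Flt3+/+ mice and at 77.5, 127, 77, 141 and 87.7 RPKM in Flt3ITD/ITD mice. Of the Flt3ITD/ITD libraries, 3 were above every Flt3+/+ library and the other two lay just below the highest of them. The mean was 1.69-fold higher in Flt3ITD/ITD mice, at 102 ± 29.8 against 60.5 ± 11.7 RPKM (SD, n = 5 each; exact two-sided permutation p = 0.0238). This did not hold after adjustment over all genes in edgeR's quasi-likelihood test (log2 fold change 0.79 ± 0.23 SE, adjusted p = 0.999). DESeq2 gave an adjusted p of 0.099, the smallest of a range from 0.099 to 1 over all settings, and the fold rule was missed. Leaving out 1 library at a time kept the log2 fold change between 0.63 and 0.89. Mesenchymal stromal markers summed to 25800 to 30200 RPKM in Flt3+/+ and 27700 to 29200 RPKM in Flt3ITD/ITD MSCs.

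In ECs, Ebf1 was at 16.9, 53, 35.1, 58.7 and 36.7 RPKM in Flt3+/+ mice and at 38.1, 47.2, 56.9, 13.9 and 49.1 RPKM in Flt3ITD/ITD mice. The ranges overlapped almost completely, with 1 low library in each genotype. The log2 fold change was 0.11 ± 0.42 (SE; edgeR's quasi-likelihood test, adjusted p = 1), and the exact permutation p was 0.944.

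The genotype difference of Ebf1 was thus below 0 in MNCs and above 0 in MSCs. A test of the difference itself gave a log2 value of -1.87 ± 0.50 (SE) for MNCs minus MSCs, with an unadjusted p of 0.00107 in edgeR's quasi-likelihood test, where 5.94% of all genes were below 0.05. It did not pass after adjustment over 16897 genes (adjusted p = 0.395), where 0.00592% of genes did. Without 1 library at a time the value stayed between -2.03 and -1.69, with adjusted p-values of 0.319 to 0.66. For MNCs minus ECs it was -1.18 ± 0.50 (adjusted p = 0.527, with 0.0118% of genes passing). None of the 9 genes passed the adjusted test of either difference, which is a result for Ebf1 alone. The other members failed the filter on low counts in ECs and in MSCs alone and entered this fit through MNCs. For them the test cannot decide whether the genotype differences differ.

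**Figure D5:**
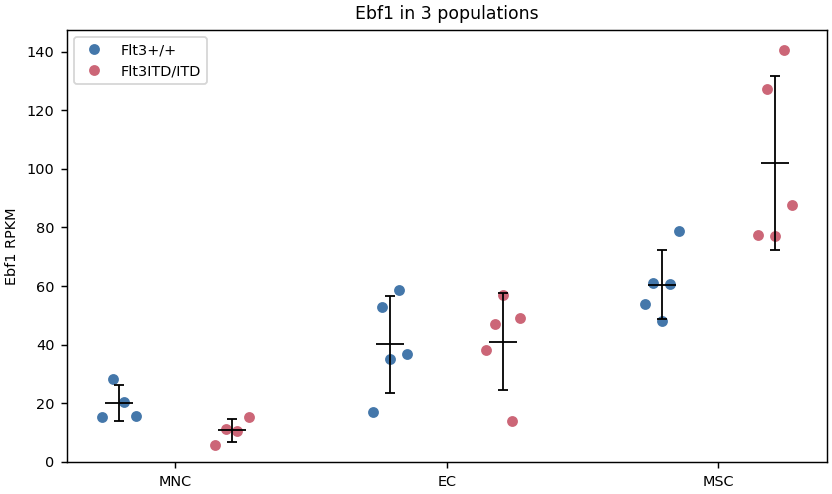
Points are Ebf1 levels in single libraries (y axis, RPKM) by population and genotype, with bars for the mean ± SD of 4 (MNC) or 5 (EC and MSC) mice. MSC libraries sit highest, at 47.9 to 141 RPKM, and the order of the genotype means in MSCs is opposite to that in MNCs.

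Rag2 and Il7r kept counts of a few reads in most EC and MSC libraries, unlike the other members. Rag2 was at 1 to 34 counts in ECs and 0 to 15 counts in MSCs. In MSCs it was at 2 to 15 counts in Flt3+/+ and 0 to 6 counts in Flt3ITD/ITD mice (exact permutation p on RPKM = 0.0635). Of the 51-base windows of Rag2 transcripts, 4.68% are shared with the gene B230118H07Rik. For Il7r, 0.665% are shared with transcripts of other genes. The source of these low counts was not tested, and they are not read as expression of Rag2 or Il7r in ECs or MSCs. Il7, the ligand of the receptor and named after its values were seen, varied from library to library in the populations that are its known sources, at 0 to 24.2 RPKM in MSCs and 0 to 24.8 RPKM in ECs, and was at most 1.18 RPKM in MNCs.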

How the data were processed

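RNA from MNCs, ECs and MSCs had been amplified from sorted cells and sequenced as single-end reads of 51 bases. Per the submitters' processing notes and the paper's methods, reads were aligned to mm10 transcripts with Bowtie, reads mapping to more than 1 place were discarded and expression was estimated with RSEM (versions are not given in the sources used here). The authors deposited counts per gene and library as whole numbers without normalization, and RPKM for the same genes. Groups came from the sample labels.

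Counts were tested with the quasi-likelihood test of edgeR 4.0.16 in R 4.3.3 (TMM normalization, filterByExpr, no covariates), fitted on all genes with Benjamini-Hochberg adjustment. Calls needed an adjusted p-value under 0.1 together with mean RPKM that differed by 1 or more on the log2 scale. DESeq2 1.42.0, edgeR's exact test and limma 3.58.1 were alternatives. Single genes were compared in RPKM by exact permutation of the mice (two-sided). A floor of 3 counts covers counting error only, since reads carried no molecular identifiers. Deviations of same-numbered libraries correlated at -0.07 to 0.06, and the main test has no block. In MNCs, however, immediate-early sums followed replicate number in both genotypes. They were 294 to 475 RPKM in replicates 1 and 2 and 19.2 to 32.2 RPKM in replicates 3 and 4. Whether same-numbered libraries shared a step of handling was not tested. No 2 libraries of a group agreed within sampling noise. The tests were checked on simulated counts.

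The 9 genes and all lists were chosen with earlier results of these data known. Named genes are the 9 members, genes of the B lineage and pathway lists at an unadjusted p-value below 0.05 in MNCs, defining markers, and the 5 genes most like the members, unless said otherwise. Promoter windows and gene positions are from RefSeq on GRCm38.p6, the assembly of mm10; motifs were searched on both strands. The 51-base windows were compared with GENCODE vM21 transcripts.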

Additional observations from a re-analysis of the deposited data

Results flagged for a closer look

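In 10 of 45 groups of 4 or 5 libraries tested, 1 library of a member gene lay farther from the others than Dixon's 95% limit, where chance alone gives about 5% of groups. All 10 were in ECs or MSCs, where most values are 0, and 8 of the 10 rest on 1 or 2 counts. Cd79b in MSCs was at 5.67 RPKM (74 counts) in Flt3ITD/ITD replicate 5 and at 0 in the other 4 mice, and that library also held 32 counts of Ptprc. Cd79a in MSCs was at 0.88 RPKM (39 counts) in Flt3ITD/ITD replicate 3, where the next library was at 0.12 RPKM and Ptprc was at 0.

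The remaining values were near the limit of detection. In ECs, Flt3+/+ replicate 4 was flagged for Cd79b at 0.06 RPKM, Pax5 at 0.06 RPKM and Rag1 at 0.04 RPKM. Flt3ITD/ITD EC replicate 5 was flagged for Cd79b at 0.03 RPKM and Flt3ITD/ITD EC replicate 3 for Igll1 at 0.04 RPKM. In MSCs, Flt3+/+ replicate 4 was flagged for Pax5 at 0.03 RPKM and Rag1 at 0.01 RPKM, and Flt3ITD/ITD replicate 5 for Rag1 at 0.03 RPKM. No library stood apart in this way for a member gene in MNCs or for Ebf1.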

How the results depend on the processing

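All 9 members stayed below 0 in MNCs under each of 16 alternatives, which gave 144 log2 fold changes. These alternatives drew on the same MNC libraries, so they are not independent of the main test or of one another. In replicates 3 and 4 alone, the log2 ratio of mean RPKM of Cd79b was 0.05. The number of members called in MNCs was 0 in the main test and 1 with DESeq2 or edgeR's exact test (Vpreb1 in both), and it was 0 in every fit without 1 library. The number lower at an unadjusted p-value below 0.05 was 5, and without 1 library at a time, settings added after the data had been seen, it ranged from 2 to 7. The number of members whose MNC libraries did not overlap was 0 in RPKM and 1 on TMM-normalized CPM, also added later. In ECs, 1 member was called in 1 fit over all 28 libraries (Cd79a), and the log2 fold change of Ebf1, 0.11, turned to -0.0579 without Flt3ITD/ITD replicate 3 and to -0.0457 without Flt3+/+ replicate 1, in a range of -0.0579 to 0.362 over the libraries left out. For these changes the cause was not tested.

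With replicate number as a block, 0 members were called between genotypes in each population and 6 were called higher in MNCs than in ECs or MSCs, as in the main test, and over all genes 0 were called in each population against 2 in MNCs, 1 in ECs and 4 in MSCs without it. A library correlated best with its own number in 2 of 4 numbers in MNCs, 2 of 5 in ECs and 4 of 5 in MSCs. Libraries of 100 or 200 cells limit what can be seen of genes such as Pax5, which had at most 21 counts.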
